A study of Mus musculus with 11 samples.

Results

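The genes described here encode chemokines, small secreted proteins that direct the movement of leukocytes: Ccl2, Ccl3, Ccl4, Ccl5, Ccl7, Ccl8, Cxcl2, Cxcl9, Cxcl10 and Cxcl16. They were chosen by symbol, and their rows were read from a table of 14604 genes across all 11 libraries, grouped by tissue and genotype. Of the 10 genes, 7 were listed with values and all 7 passed the filter on low values; Ccl2, Ccl7 and Ccl8 were not analysed here. In the 7 listed genes the level was higher in every library from tumors than in every library from spleens, by between 2.83 (Ccl5) and 8.18 (Cxcl2) on the log2(n + 1) scale. No difference in any of them between genotypes passed the test.

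The libraries were RNA-seq of cells sorted as live CD4+ GITR+ CD25+ from mice that carried MC38 tumors, a transplanted colon carcinoma cell line, to obtain tumor-infiltrating regulatory T cells (TI-Tregs) and spleen Tregs. The study asked how the tissues differ and what loss of CD177, a surface glycoprotein best known from neutrophils, changes in Tregs. Control mice, called wild-type in the labels, were CD177flox/flox and so carried the floxed alleles without Cre. Knockout mice were CD177flox/flox/FOXP3-CreYFP, in which Foxp3 drives the Cre and deletion is limited to cells that use that promoter. There were 3 wild-type and 3 knockout spleen libraries, and 3 wild-type and 2 knockout tumor libraries. No drug was given to any group, the methods take the spleens from the same mice as the tumors, and neither the age of these mice nor whether a library pooled several of them is given in the labels. Cd177 was not listed, so the genotype could not be checked against its own transcript. Values are the logarithm to base 2 of n + 1, where n is the normalized estimated count of a gene. Because n is not stated to be scaled by transcript length, levels are compared between libraries for 1 gene and not between genes.

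Chemokines act on leukocytes through G protein-coupled receptors and fall into families named for the spacing of their first cysteines, CC and CXC. Ccl3, Ccl4 and Ccl5 draw T cells, monocytes and macrophages. Cxcl2 binds Cxcr2 and draws neutrophils, and Cxcl9 and Cxcl10 are induced by interferons and bind Cxcr3 on activated T cells and NK cells. Cxcl16 binds Cxcr6 and is made as a membrane-anchored protein that Adam10 can release. In tumors these ligands are known products of macrophages, dendritic cells, tumor cells and activated lymphocytes.

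In GENCODE M21 on GRCm38 the listed genes lie in clusters. Ccl5 (chr11:83525778-83530518, minus strand), Ccl3 (chr11:83647844-83649355, minus strand) and Ccl4 (chr11:83662584-83664683, plus strand) are close neighbors, with 13228 bases between Ccl3 and Ccl4. Cxcl9 (chr5:92321347-92328079, minus strand) and Cxcl10 (chr5:92346638-92348889, minus strand) are 18558 bases apart. Cxcl2 lies at chr5:90903871-90905938 on the plus strand and Cxcl16 at chr11:70453983-70459984 on the minus strand. The members named without values here, Ccl2, Ccl7 and Ccl8, form another chromosome 11 cluster starting at chr11:82035571 on the plus strand. Exons of Cxcl16 overlap Zmynd15 and exons of Cxcl10 overlap Art3, both on the opposite strand. Strand use in the counting is not given in the sources used here, so reads from these overlaps cannot be told apart.

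The 250 bases before the transcription start in RefSeq (GRCm38.p6) were available for Cxcl2, Cxcl9, Cxcl10 and Ccl3. For Cxcl2 and Ccl3 that start differs from the GENCODE start given above, and the Cxcl2 window runs into the gene as placed there. No such sequence was available for Ccl4, Ccl5 or Cxcl16. Interferon-gamma and NF-kB signals, well known inducers of chemokines, act at elements of the kinds searched here. Whether these elements had a part in the differences between tissues was not tested. Capitals mark the matches to any of 5 motifs searched on both strands: the interferon-stimulated response element GAAANNGAAA, the gamma-activated site TTCNNNGAA, the AP-1 site TGANTCA, the TATA box TATAAA and the NF-kB consensus.
Cxcl10: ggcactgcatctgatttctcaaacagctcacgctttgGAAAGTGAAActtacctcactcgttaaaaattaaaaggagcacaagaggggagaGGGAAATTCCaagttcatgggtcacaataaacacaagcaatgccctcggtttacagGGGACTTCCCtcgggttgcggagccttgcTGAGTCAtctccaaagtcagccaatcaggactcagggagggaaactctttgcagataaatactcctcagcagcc
Cxcl2: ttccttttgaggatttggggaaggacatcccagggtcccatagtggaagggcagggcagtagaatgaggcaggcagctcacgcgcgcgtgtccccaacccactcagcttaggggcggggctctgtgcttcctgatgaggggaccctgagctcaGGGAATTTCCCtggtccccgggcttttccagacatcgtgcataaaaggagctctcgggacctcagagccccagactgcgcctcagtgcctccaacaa
Cxcl9: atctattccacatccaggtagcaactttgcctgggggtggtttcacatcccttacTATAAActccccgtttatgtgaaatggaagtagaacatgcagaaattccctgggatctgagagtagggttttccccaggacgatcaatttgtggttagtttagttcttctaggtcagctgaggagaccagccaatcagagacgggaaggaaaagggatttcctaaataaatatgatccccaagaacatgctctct
Ccl3: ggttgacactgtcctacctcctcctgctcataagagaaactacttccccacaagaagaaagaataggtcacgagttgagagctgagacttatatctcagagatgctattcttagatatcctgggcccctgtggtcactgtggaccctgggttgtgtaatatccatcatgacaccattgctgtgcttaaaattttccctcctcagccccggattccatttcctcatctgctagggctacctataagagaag

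The windows are chr5:92348890-92349139 (Cxcl10, minus strand), chr5:90903649-90903898 (Cxcl2, plus strand), chr5:92328080-92328329 (Cxcl9, minus strand) and chr11:83649379-83649628 (Ccl3, minus strand), written 5′ to 3′ on the gene's strand. Cxcl10 held the interferon element at 213 to 204 bases before the start, NF-kB matches at 159 to 150 and at 103 to 94, and an AP-1 site at 74 to 68. Cxcl2 held the NF-kB consensus on both strands in overlapping letters, at 97 to 88 and 96 to 87 bases before the start. Cxcl9 held only TATAAA, at 195 to 190, and Ccl3 held none of the 5. Among 32851 promoters of the same length, NF-kB was matched in 3.9%, GAAANNGAAA in 2.98%, TTCNNNGAA in 7.02%, TGANTCA in 6.75% and TATAAA in 12.4%. These are letter matches and not shown binding sites.

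All 7 genes passed the test between tissues (limma on all 13897 genes past the filter, Benjamini-Hochberg adjusted p below 0.05), and in all 7 the 5 tumor libraries lay above the 6 spleen libraries. Over all genes tested, 43.1% were called higher in tumor, 35.9% were called lower, and in 35.2% every tumor library lay above every spleen library. The median difference over all genes was 0.08 on the log2 scale, against 5.92 over the 7. For each of the 7, an exact two-sided permutation test over the 11 libraries gave p = 0.0043, the smallest it can give; the test treats the libraries as unrelated, although tumor and spleen libraries shared mice and which ones did is not given. In bulk RNA, fewer cells of a type and less RNA per cell cannot be told apart, and macrophage transcripts rose along with the chemokines, as given below.

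**Figure D1:**
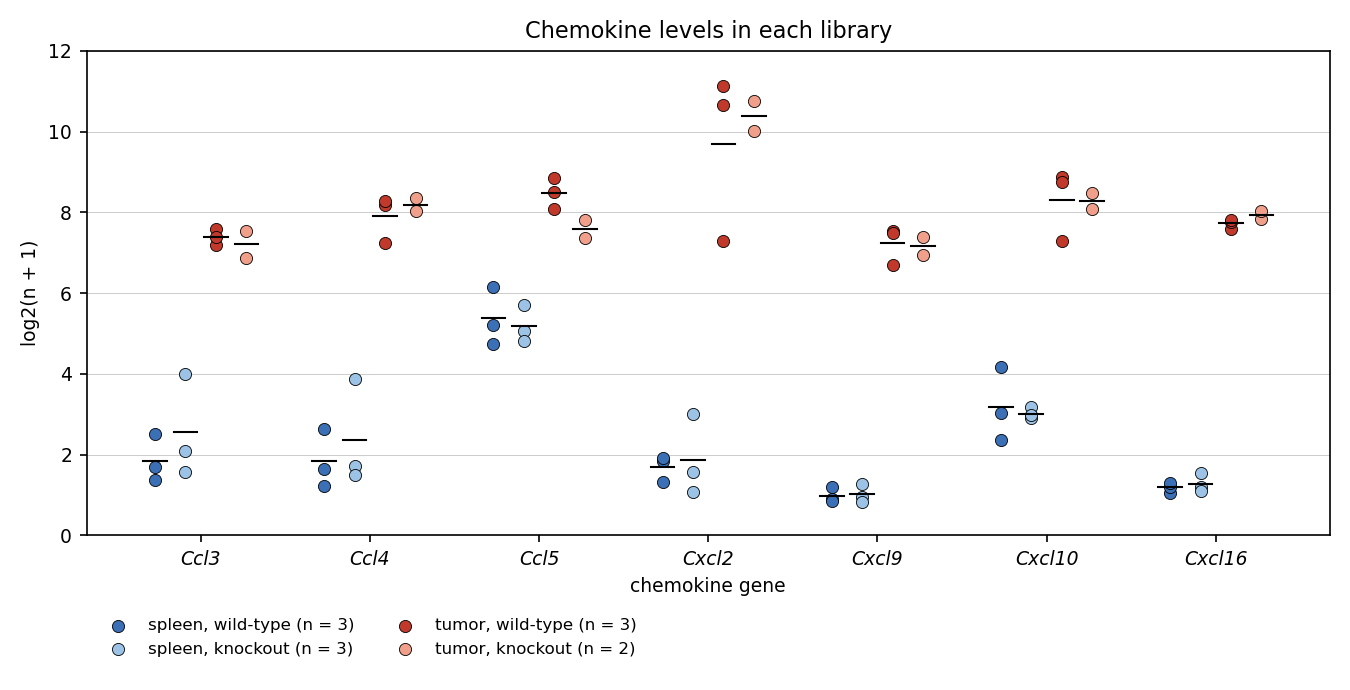
Level of each listed chemokine, as log2(n + 1), in the 11 libraries, with 1 point per library and a line at each group mean. In every gene all tumor points lie above all spleen points, with the smallest gap in Ccl5 (1.20) and the widest spread among tumor libraries in Cxcl2.

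Among the CC chemokines, Ccl3 was at 1.69, 1.36 and 2.50 in the wild-type spleen libraries and at 2.10, 3.99 and 1.56 in the knockout spleen libraries, and at 7.19, 7.58 and 7.38 in wild-type and 6.87 and 7.54 in knockout tumor libraries. One spleen library, knockout replicate 2, stood high, but the lowest tumor library still lay 2.88 above it. The mean rose from 2.20 ± 0.97 (SD, n = 6) in spleen to 7.31 ± 0.29 (n = 5) in tumor, a difference of 5.11 (SE 0.386, limma adjusted p = 6.67e-08). As n, the range was 1.56 to 14.9 in spleen and 116 to 190 in tumor.

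Ccl4, its neighbor and close relative, was at 1.64, 1.22 and 2.63 in wild-type and at 1.73, 3.88 and 1.5 in knockout spleen, and at 7.24, 8.19 and 8.27 in wild-type and 8.03 and 8.35 in knockout tumor. The same spleen library was highest, and wild-type tumor replicate 1 was the lowest of the tumor libraries. The difference was 5.92 (SE 0.411, limma adjusted p = 2.98e-08), and n rose from 1.33–13.7 to 150–325. Within a library, Ccl3 minus Ccl4 was 0.10 ± 0.16 in spleen (n = 6) and −0.71 ± 0.42 in tumor (n = 5), a difference of −0.81 (exact two-sided permutation p = 0.0087), while the ranges overlapped, at −0.12 to 0.37 and −1.16 to −0.05.

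Ccl5, which T cells and NK cells make on activation, was already at 4.75, 5.22 and 6.16 in wild-type and 5.07, 5.71 and 4.81 in knockout spleen Tregs. It was at 8.85, 8.51 and 8.08 in wild-type and at 7.81 and 7.36 in knockout tumor. The rise was the smallest of the 7, at 2.83 (SE 0.292, limma adjusted p = 1.27e-06). The n was 25.9 to 70.6 in spleen and 164 to 460 in tumor.

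Cxcl2, the Cxcr2 ligand, was at 1.84, 1.92 and 1.33 in wild-type and 1.56, 3.0 and 1.07 in knockout spleen, and at 7.30, 11.12 and 10.66 in wild-type and 10.02 and 10.75 in knockout tumor. Wild-type tumor replicate 1 stood far below the other 4 tumor libraries, yet 4.30 above the highest spleen library. The difference was 8.18 (SE 0.588, limma adjusted p = 4.13e-08), and without that library it was 8.85. By size of rise Cxcl2 ranked 6 of the 13897 genes. It shares 98.3% of a 116-base stretch with Cxcl3, its close relative, which was not listed, so reads of the pair could be mixed.

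The Cxcr3 ligands differed in how far they varied. Cxcl9 was at 0.89, 0.86 and 1.21 in wild-type and 1.28, 0.96 and 0.82 in knockout spleen, near the value that n = 1 gives, and at 6.70, 7.53 and 7.49 in wild-type and 6.94 and 7.39 in knockout tumor. Its difference was 6.21 (SE 0.157, limma adjusted p = 1.02e-11). The spread within spleen was small beside it, at an SD of 0.19. As n, Cxcl9 was at 0.766 to 1.42 in spleen, where the + 1 narrows the spread on the log2 scale.

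Cxcl10 was at 3.04, 2.35 and 4.17 in wild-type and 3.17, 2.91 and 2.97 in knockout spleen, and at 7.29, 8.87 and 8.76 in wild-type and 8.09 and 8.49 in knockout tumor. Wild-type spleen replicate 3 was the highest of the spleen libraries, and wild-type tumor replicate 1 the lowest of the tumor libraries. The difference was 5.20 (SE 0.318, limma adjusted p = 9.46e-09). Within a library, Cxcl9 minus Cxcl10 ranged from −2.96 to −1.48 in spleen and from −1.34 to −0.60 in tumor, a difference of 1.01 without overlap (exact two-sided permutation p = 0.0043). This gap rests on the pseudocount, since Cxcl9 was near n = 1 in spleen: with a pseudocount of 5 it was 0.02 (exact p = 0.95) and with 0.1 it was 1.71. Art3, the gene on the other strand, was at 2.26 ± 0.22 in spleen (n = 6) and 2.13 ± 0.44 in tumor (n = 5).

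Cxcl16 showed the least spread, with an SD of 0.18 in spleen, where n was only 1.07 to 1.91, and 0.16 in tumor. It was at 1.05, 1.21 and 1.3 in wild-type and 1.20, 1.54 and 1.09 in knockout spleen, and at 7.59, 7.76 and 7.82 in wild-type and 7.84 and 8.03 in knockout tumor. The difference was 6.58 (SE 0.102, limma adjusted p = 2.04e-13). Zmynd15, whose exons overlap it over 552 bases, went from 0.46 ± 0.14 (n = 6) to 5.25 ± 0.44 (n = 5), so the share of either gene's reads that belongs to the other is uncertain.

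The rise was also tested within each genotype, since tissue libraries came from both. In wild-type mice the 7 genes rose by 3.10 (Ccl5) to 8.0 (Cxcl2), and all 7 were called against 39.2% of all genes called higher. In knockout mice they rose by 2.39 (Ccl5) to 8.50 (Cxcl2), and all 7 were called against 36.2%. None of the 7 was called for the interaction of tissue and genotype, where limma called 0% of genes, and 383 genes but no member had an unadjusted p below 0.05. The interaction, knockout minus wild-type, was narrowest for Cxcl16 at 0.12 (95% interval −0.33 to 0.57), and its interval ran from −2.31 to 3.32 for Cxcl2. The SE of the Cxcl2 rise in wild-type mice was 0.846, and 0.479 without wild-type tumor replicate 1.

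**Figure D2:**
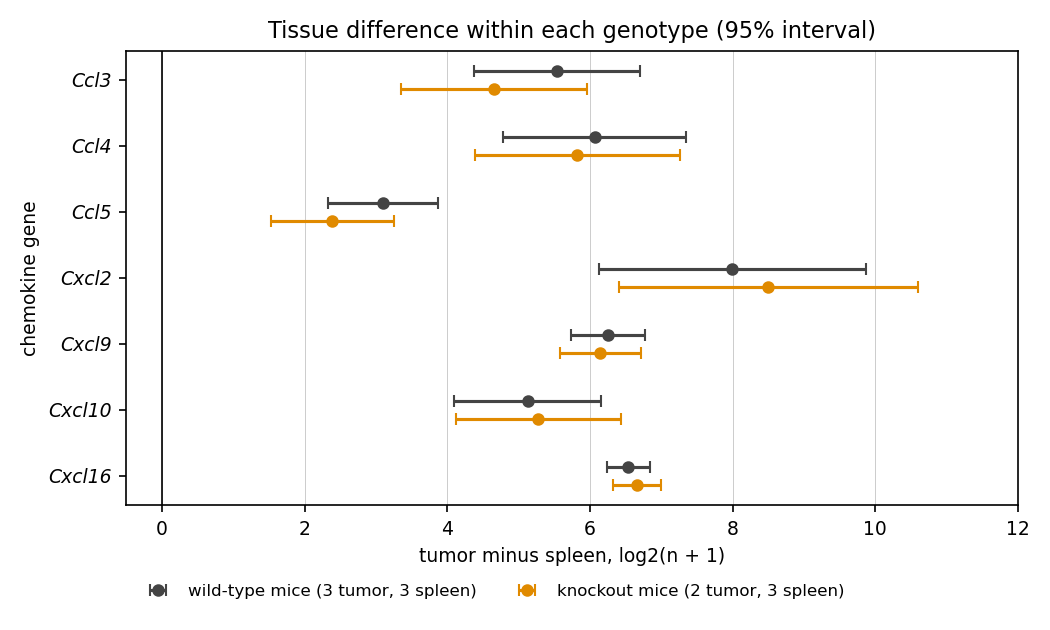
Tumor minus spleen difference of each listed chemokine in log2(n + 1), in wild-type and in knockout mice, with 95% intervals from limma. The intervals of the genotypes overlap in each gene, and all lie above 0.

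Between knockout and wild-type mice, none of the 7 was called in either tissue (0% of genes called in spleen, with 281 at an unadjusted p below 0.05, and 0.00720% in tumor, with 634). The 1 gene called in tumor was Gm45837. Ccl5 in tumors was the 1 member among those 634 genes. It was at 7.36 and 7.81 in the knockout libraries and at 8.08 to 8.85 in the wild-type libraries. The difference was −0.89 (95% interval −1.76 to −0.03, not adjusted for the number of genes), and its limma adjusted p was 0.9997. With 2 libraries against 3, an exact permutation test cannot fall below 0.05. CD8 T and NK cell markers, a list of 11 genes, had summed n of 548, 391 and 391 in wild-type and 330 and 153 in knockout tumors. The median gene of that list was at 5.58, 4.81 and 5.15 in wild-type and 5.0 and 3.55 in knockout tumors. That order differed from the order of Ccl5. The part of these markers in the Ccl5 values was not tested.

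Several chemokines were high or low in the same library. Wild-type tumor replicate 1 was the lowest tumor library for Ccl4, Cxcl2, Cxcl9, Cxcl10 and Cxcl16, and the highest for Ccl5. In that library the macrophage and monocyte list had the lowest sum among the tumors, at 11101 against 12217 to 16300, and the T cell and Treg list the highest, at 2662 against 1641 to 2466. Knockout spleen replicate 2 was the highest spleen library for Ccl3, Ccl4, Cxcl2 and Cxcl16. It also had the highest sum of B cell markers (62.2 against 18.4 to 29.5) and of CD8 T and NK cell markers (99.7 against 49.6 to 69.2) among spleens, and its macrophage and monocyte sum (420) was second to that of wild-type replicate 1 (462). The part of these cells in the library values was not tested. Without both libraries the differences between tissues were 5.50 for Ccl3, 6.47 for Ccl4 and 9.09 for Cxcl2.

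**Figure D3:**
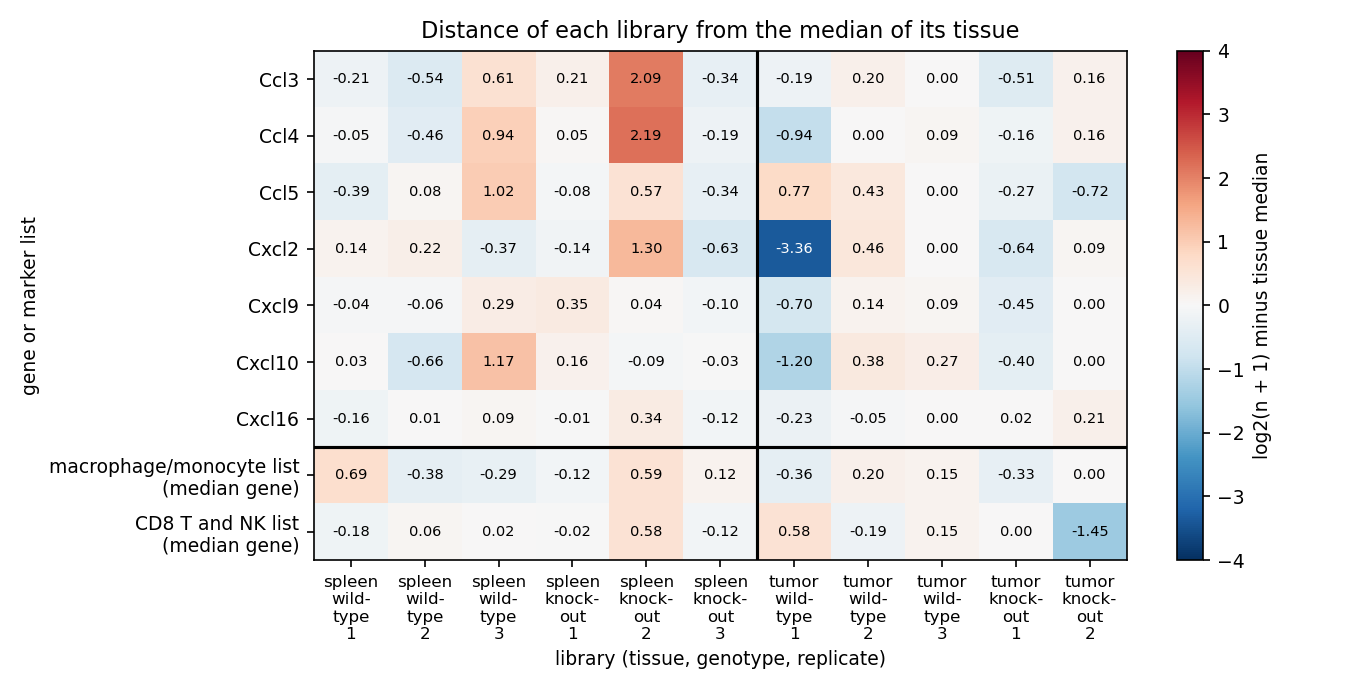
Each cell gives a library's log2(n + 1) minus the median of the libraries of its tissue, for the 7 chemokines and the median gene of 2 marker lists. The darkest cell is Cxcl2 in wild-type tumor replicate 1, while Ccl3 and Ccl4 stand out in knockout spleen replicate 2.

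T cell transcripts were present in both tissues, with Foxp3 at 6.35 ± 0.30 in spleen (n = 6) and 5.50 ± 0.55 in tumor (n = 5), and Cd4 at 7.72 ± 0.15 and 7.30 ± 0.25. Markers of other cells also rose in tumor. All 14 macrophage and monocyte markers were called higher, with a median difference of 5.04, and their summed n went from 196–462 to 11101–16300. Lyz2, the lysozyme of myeloid cells, was at 4.75 ± 1.18 in spleen and 12.35 ± 0.30 in tumor. None of the 14604 listed genes was at 0 in any library, so values above 0 among the listed markers do not show that a cell type was present. Of fibroblast and endothelial markers 7 of 9 were higher and 1 lower (summed n 61.7–77.1 and 513–1061), and of CD8 T and NK cell markers 7 of 11 were higher and 1 lower (49.6–99.7 and 153–548). Of dendritic cell markers 5 of 7 were higher (8.68–20.1 and 60.7–86.3). Itgax made up most of that rise, with a mean n of 1.70 in spleen and 54.7 in tumor. Zbtb46 was the next highest of the list in tumor, at 9.09, and Flt3 and Siglech were not called. Of 8 neutrophil markers only 2, Csf3r and Ltf, were listed, and both were higher, at low sums of 0.923–2.80 and 12.4–16.5. S100a8, S100a9, Retnlg, Ly6g, Camp and Ngp were not listed, so these sums do not measure neutrophil content. B cell markers had 1 higher and 3 lower of 6, and their sums were 18.4–62.2 and 14.6–25.2. Epithelial markers had 1 higher and 1 lower of 3 tested, with sums of 3.70–5.35 and 13.8–25.4 over 4 listed. The higher one was Cdh1, with a mean n of 0.723 in spleen and 16.3 in tumor, while Epcam (2.53 and 2.11) was not called. T cell and Treg markers had 2 higher and 7 lower of 11 (2430–2720 and 1641–2662). Under the scalings tried all 14 macrophage markers stayed higher, dendritic cell markers ran from 3 to 5 higher, and T cell and Treg markers from 7 to 9 lower. The part of these cells in the chemokine values was not tested.

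Set against the median of the macrophage and monocyte list within each library, the chemokines did not all keep pace with that median. The 14 genes of the list did not either. Their own rises ran from 2.26 (Ly6c2) to 8.19 (Cd14), a span that holds those of all 7 chemokines. The tests below set each chemokine against the list median only, and the 14 genes were given no such test. Whether any chemokine departed from macrophage content was therefore not tested. Cxcl2 minus that median ranged from −2.78 to −1.31 in spleen and from −0.93 to 2.33 in tumor. It rose by 3.49 relative to the list (exact two-sided permutation p = 0.0043), and by 2.71 with a pseudocount of 5, where the ranges overlapped. Cxcl16 rose by 1.89 relative to the list (exact p = 0.0043), and by 0.83 with a pseudocount of 5. Cxcl9 rose by 1.52 (exact p = 0.0043), but its difference was 0.33 with a pseudocount of 5 and was then not past the threshold (exact p = 0.11). Ccl4 rose by 1.23 (exact p = 0.03), a call lost with a pseudocount of 5 (0.59, exact p = 0.056) and on leaving out any 1 of 6 libraries: wild-type spleen replicates 1 and 2, knockout spleen replicates 1 and 3, or either knockout tumor library (1.02 to 1.20). The differences of Ccl3, at 0.42, and Cxcl10, at 0.51, did not pass the test, although Cxcl10 did without wild-type spleen replicate 3 (0.80). Ccl5 fell by 1.86 relative to the list (exact p = 0.0087).

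The other chemokine ligands give the setting. Of 18 listed, limma called 11 higher and 4 lower in tumor, with a median difference of 1.90. The CC chemokines Ccl6 (2.35 ± 1.11 in spleen and 9.20 ± 0.56 in tumor) and Ccl9 (2.11 ± 0.54 and 8.28 ± 0.34) rose by 6.85 and 6.17. Pf4, a CXC chemokine of platelets and some macrophages, rose by 6.34. The Ccr4 ligands Ccl17 and Ccl22 rose by 4.19 and 4.58, and Ccl1, which binds Ccr8, by 3.49. Cxcl12, made by stromal cells, rose by 2.98. Cxcl11, the third Cxcr3 ligand, rose by 1.16. Ppbp, a platelet chemokine, fell by 1.61, and Ccl25, Ccl28 and Cxcl15 were also called lower. Levels were very low for Ccl28, at a mean n of 0.584 in spleen and 0.269 in tumor with overlapping ranges. Cxcl15 was also low, at 1.55 and 0.421. Ccl27a, Cxcl5 and Xcl1 did not pass the test, though Cxcl5 was called lower with median centring (−0.38) and with equal library totals (−0.44).

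**Figure D4:**
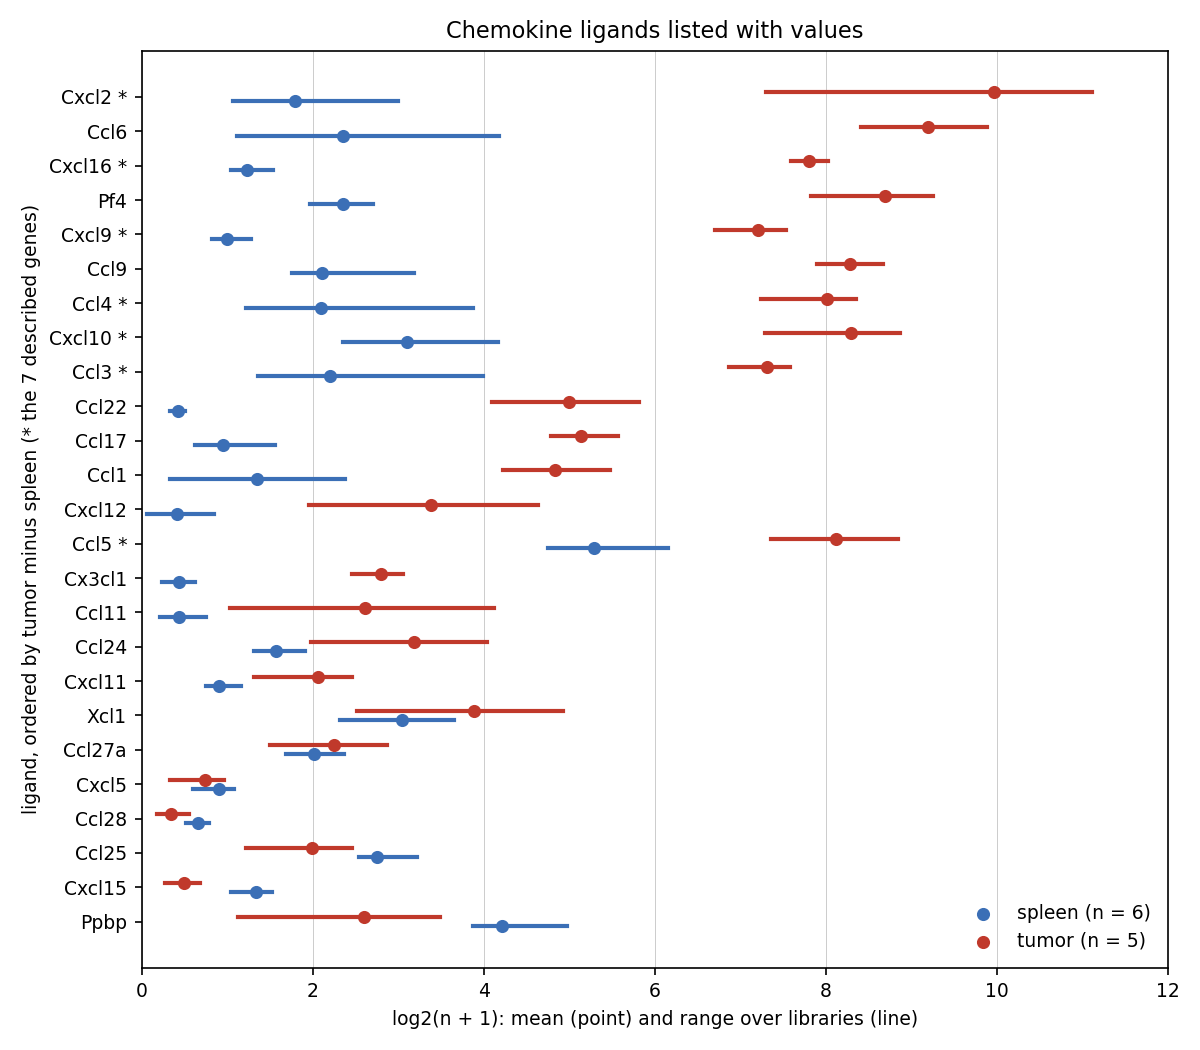
Mean and range of log2(n + 1) in 6 spleen and 5 tumor libraries for the 25 chemokine ligands listed with values, ordered by the difference between tissues. The 9 with the largest rise, from Cxcl2 down to Ccl3, include 6 of the 7 genes described (starred).

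The receptors of these ligands were mixed. Of 8 listed, 5 were higher and 3 lower. Ccr1, which Ccl3 and Ccl5 share, rose by 6.39, and Ccr2, best known as the receptor of Ccl2, by 3.65. Ccr8 rose by 2.44. Cxcr6, the receptor of Cxcl16, rose by 1.85, from 4.65 ± 0.63 (n = 6) to 6.51 ± 0.78 (n = 5). Cxcr2, the receptor of Cxcl2, was lower in tumor, from 3.66 ± 0.08 to 1.96 ± 0.24, and fell by 1.70. Cxcr3, the receptor of Cxcl9 and Cxcl10, fell by 0.40 and Ccr3 by 1.58. The call for Cxcr3 was lost on leaving out any 1 of 6 of the 11 libraries (limma adjusted p of 0.0514 to 0.0808): wild-type spleen replicates 1, 2 and 3, knockout spleen replicate 3, and wild-type tumor replicates 2 and 3.

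Of 15 genes of the inducing pathways, 13 were higher, 1 lower and 1 not called, with a median difference of 1.44. Il1b, a cytokine that induces Cxcl2, had the largest rise of all genes tested at 8.95, from 1.31 ± 0.75 (n = 6) to 10.26 ± 1.03 (n = 5). Tnf rose by 3.39, and Ifng, the inducer of Cxcl9 and Cxcl10, by 1.71. Among transcription factors, Irf8 rose by 2.66, Irf1 by 0.56 and Rela by 0.24. Jak1, a kinase of interferon receptors, fell by 0.90. Nfkb1 differed by −0.09 and did not pass the test. The small rises depend on the scaling: with equal library totals Irf1 and Jak2 were not called, Rela was called lower at −0.37, and the list held 9 higher and 4 lower; quantile normalization also called Irf1 (−0.29) lower. Of the genes that process ligands, Adam10 and Adam17, which release Cxcl16, rose by 0.57 and 1.09, Mmp9 rose by 1.37, and Dpp4, which trims chemokine ends, fell by 2.17. With equal library totals Adam10 (−0.05) and Mmp9 (0.84) were not called.

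For each chemokine, the genes outside the set with the most similar levels over the 11 libraries were found by Pearson's r. For Ccl3 they were Tcf4 (0.9944) and Ncf1 (0.9943), and for Ccl4 Alox5 (0.9969) and Ncf1 (0.9961), Ncf1 being a subunit of the phagocyte oxidase. For Ccl5 they were Gm6170 (0.9873) and St3gal3 (0.9867). For Cxcl2 they were Nlrp3 (0.9975), an inflammasome sensor, and Kctd12 (0.9955). For Cxcl9 they were Lamp2 (0.9993), a lysosomal membrane protein, and Rnh1 (0.9990), and for Cxcl10 Zfp703 (0.9963) and Tmem256 (0.9960). For Cxcl16 they were Trem2 (0.9993) and Msr1 (0.9992), both receptors of macrophages. These are descriptions over libraries of 2 tissues, and the difference between tissues enters each r.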

How the data were processed

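RNA-seq libraries of sorted Tregs from MC38 tumors and spleens were made and quantified by the authors with kallisto and sleuth 0.30.0 on mm10. The version of kallisto is not given in the sources used here. The deposited table holds log2(n + 1), n being sleuth's normalized estimated count per gene symbol, and the methods give only 1 approximate read depth for all libraries, so the depth of each library is not known and counting intervals cannot be given. Summed n was 712832 to 844331 in spleen and 1103159 to 1304548 in tumor libraries, and Gm12896 made up 31.4 to 42.4% of it. All 11 columns were matched to samples by name. Genes with a mean of at least 0.5 (13897 of 14604) were fitted on the deposited log2 values with limma 3.58.1 (trend), with Benjamini-Hochberg adjustment over all genes and a call at 0.05. Tissues were compared over all libraries, and a model of 4 group means gave the comparisons within genotype, the interaction and the comparisons of genotypes. The code was tested on simulated data. Fold sizes of genes with low n are understated by the + 1. Nothing says that libraries came from separate mice, so p-values measure only the spread between these samples. Members and lists were chosen with earlier results of these data known, and within-library differences after values were seen. Named genes are the members, genes of the lists and, for each member, the 2 other genes of highest r. Gm45837 and the overlapping genes were named after their values were seen. Near-identical stretches were sought with BLAST 2.17.0 in GENCODE M21 transcripts (at least 90% over 100 bases). Alternatives were other scalings, pseudocounts, filters, adjustment, a minimum difference, a replicate block and leaving out libraries. Values of some genes of the lists are not reported here.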

Additional observations from a re-analysis of the deposited data

Results flagged for a closer look

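Among 30 groups of libraries examined for a value far from the rest, 2 were found, and chance gives about 1.5. Cxcl2 in wild-type tumor replicate 1 was 7.30, apart from the other 4 tumor libraries at 10.02 to 11.12. The median of the CD8 T and NK cell list in knockout spleen replicate 2 was 3.04, apart from the other spleen libraries at 2.28 to 2.52.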

How the results depend on the processing

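All 7 chemokines stayed higher in tumor and past the threshold over all libraries in all 23 alternative fits, and also with Bonferroni adjustment or a minimum difference of 1, with differences from 2.22 (Ccl5, equal library totals) to 9.09 (Cxcl2, without 2 libraries) and a highest adjusted p of 0.000145 (Ccl5, limma, replicate block). With Bonferroni adjustment 5051 genes were called between tissues and 4556 with a difference of at least 1, against 10971 otherwise. Of called genes, 54.5% were higher in tumor as deposited. Quantile normalization moved this to 42.1%, centring on medians to 43.7% and equal library totals to 29.6%, the last with a median difference of −0.44. Within knockout mice, Bonferroni adjustment left 5 of the 7 called, with Ccl3 and Ccl5 lost. Tumors and spleens came from the same mice, but no source says that a replicate number marks a mouse, and the data gave no sign of it (correlations of −0.128 to 0.0375 between same-numbered libraries). With a replicate block 10512 genes and all 7 chemokines were called between tissues, and 0 genes for the interaction. Values that were not called changed sign when libraries were left out. The interaction of tissue and genotype ran from −0.68 to 0.51 for Ccl4, −0.69 to 1.22 for Cxcl2, −0.41 to 0.12 for Cxcl9 and −0.41 to 0.57 for Cxcl10. The difference of knockout against wild type in spleen ran from −0.0213 to 1.20 for Ccl3, −0.22 to 0.97 for Ccl4, −0.50 to 0.21 for Ccl5, −0.38 to 0.59 for Cxcl2, −0.0945 to 0.15 for Cxcl9, −0.59 to 0.33 for Cxcl10 and −0.0428 to 0.18 for Cxcl16. In tumor it ran from −0.52 to 0.15 for Ccl3, −0.0395 to 0.47 for Ccl4, −0.51 to 1.4 for Cxcl2, −0.34 to 0.15 for Cxcl9 and −0.53 to 0.26 for Cxcl10. For Cxcl10 it was 0.019 with equal library totals and 0.0277 with equal totals without Gm12896, the last setting and the joint removal of 2 libraries being chosen after the data were seen. The causes were not tested. Relative to the macrophage list, the rise of Ccl3 turned to −0.156 with a pseudocount of 5. Within-library alternatives were added after the data were seen. With 2 knockout tumor libraries, small differences between genotypes could not be detected.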
